A study of Mus musculus with 12 samples.

Results

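The RNAs described are 10 nuclear noncoding RNAs and snoRNA host genes, measured by total RNA sequencing in 12 libraries from the mouse fibroblast line NIH-3T3. They were chosen by symbol: Malat1, Neat1, Rpph1, Rmrp, Terc, Gas5, Snhg1, Snhg3, Snhg8 and Snhg12. The 10 symbols matched 11 of the 54392 gene rows of the table of normalized counts, because Rmrp is annotated as a pair of nested genes. Of these rows, 9 reached at least 10 normalized counts in at least 3 of the 12 libraries and were tested among 15073 genes. Terc and the longer Rmrp row did not. The WT group has the genotype Crls1WT, and the groups KO1, KO2 and KO3 are Crls1-targeted lines, with 3 libraries a group. Crls1 encodes cardiolipin synthase, which makes the signature lipid of the inner mitochondrial membrane. Each KO line was grown from 1 sorted cell after transfection with a Cas9 plasmid carrying a guide against Crls1, so each is a single clone. All groups were grown in the same glucose medium with pyruvate and uridine. The labels do not say whether WT cells passed through transfection or sorting, or whether the 3 libraries of a group are separate cultures, so p-values measure only the spread between libraries, which may be technical. Cytoplasmic ribosomal RNA was removed and cDNA was started from random hexamers, so RNAs without a poly(A) tail are represented.

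Malat1 and Neat1 are long RNAs that stay in the nucleus: Malat1 gathers in nuclear speckles, where splicing factors concentrate, and Neat1 is the scaffold around which paraspeckles are built. Rpph1, Rmrp and Terc are the RNA subunits of enzymes: RNase P trims the 5′ ends of precursor transfer RNAs, RNase MRP acts in the processing of ribosomal RNA precursors, and telomerase copies its Terc template onto chromosome ends. Gas5 and the Snhg genes are hosts of small nucleolar RNAs (snoRNAs). These short guides for ribosomal RNA modification are cut out of the introns, and the spliced host RNA that remains is often short lived, since nonsense-mediated decay removes it when it is translated.

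The sequences of the Rmrp and Rpph1 RNAs are shown first because they set how far their counts can be assigned to a row. Both genes are short, intronless and on the minus strand of GRCm38. The longer Rmrp transcript (281 bases, chr4:43492783-43493063, annotated as a lincRNA) contains the whole of the shorter one (271 bases, chr4:43492788-43493058, annotated as a ribozyme). Capitals mark the 5 bases at each end that only the longer transcript has, and all 31-base stretches of the shorter one occur in the longer.
Rmrp-202: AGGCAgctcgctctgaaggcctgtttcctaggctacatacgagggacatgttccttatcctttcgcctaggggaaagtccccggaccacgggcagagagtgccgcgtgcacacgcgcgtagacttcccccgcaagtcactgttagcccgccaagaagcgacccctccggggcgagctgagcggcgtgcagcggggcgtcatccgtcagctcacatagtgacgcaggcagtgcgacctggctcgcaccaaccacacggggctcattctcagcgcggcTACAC
Rpph1 (319 bases, chr14:50807449-50807767) shares bases 36 to 268 with an exon of the protein-coding gene Ccnb1ip1 on the same strand. The stretches that only Rpph1 carries are its first 35 and its last 51 bases, given here in lower case throughout.
Rpph1, first 35 bases: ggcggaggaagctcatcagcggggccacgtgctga
Rpph1, last 51 bases: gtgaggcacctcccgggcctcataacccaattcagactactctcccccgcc
Of the 31-base stretches of Rpph1, 70.2% also occur in Ccnb1ip1, which had a mean of 1.16 normalized counts over the 12 libraries. Part of the Rmrp gene (124 bases) lies opposite an exon of Ccdc107, and the sources used here do not state whether the counting used strand, so reads from that stretch cannot be told apart.

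Promoter features found in some of the snoRNA hosts are shown next, since 5 of the 10 genes belong to that class. RefSeq start sites (build GRCm38.p6) were matched for 6 genes, with 2 starts for Gas5. Neat1, Rpph1, Rmrp and Terc were not matched. Each window runs from 50 bases before the start to 30 bases from it onward. Capitals mark a terminal oligopyrimidine stretch (a C within 5 bases of the start, followed by at least 4 pyrimidines) and a TATA-like stretch (TATAAA, or TTATAA, or else TATATA, at 35 to 20 bases before the start), both searched on the gene's strand only.
Gas5, second start, chr1:161035116-161035195, plus strand: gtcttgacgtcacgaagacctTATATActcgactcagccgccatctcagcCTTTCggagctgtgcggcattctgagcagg
Snhg12, chr4:132308628-132308707, plus strand: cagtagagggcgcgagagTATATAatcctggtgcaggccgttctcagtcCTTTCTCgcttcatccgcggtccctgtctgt
Snhg8, chr3:123508307-123508386, minus strand: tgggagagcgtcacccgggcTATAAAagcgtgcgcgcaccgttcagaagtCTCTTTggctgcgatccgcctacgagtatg
Snhg3, chr4:132353657-132353736, minus strand: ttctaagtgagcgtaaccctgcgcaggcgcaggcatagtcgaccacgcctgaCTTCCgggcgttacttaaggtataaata
Malat1, chr19:5802643-5802722, minus strand: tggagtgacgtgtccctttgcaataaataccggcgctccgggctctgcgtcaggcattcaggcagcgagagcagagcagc
An oligopyrimidine start was found in 4 of the 5 hosts, Gas5 through its second start only. By window it was 4 of the 7 matched windows, while 18.3% of all 32851 promoter windows held one. A TATA-like stretch was found in 3 hosts and in 3 of the 7 matched windows, against 2.79% of all windows. The window of Malat1, shown for contrast, and those of Snhg1 and of the first Gas5 start held neither. Oligopyrimidine starts are the mark of the genes whose translation follows growth signals, ribosomal proteins above all. A match describes the letters in these windows only.

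Recovered reads ranged from 32929242 to 42211807 a library. Crls1 had 815 ± 68.4 normalized counts in WT (SD, n = 3) and 210 ± 2.67, 349 ± 21.1 and 381 ± 23.9 in KO1, KO2 and KO3, so the targeted gene was lower in all 9 clone libraries (limma, adjusted p = 2.99e-09, 1.61e-07 and 4.54e-07). The fibroblast label held: 8 of 9 fibroblast markers passed the filter, with summed counts of 792246 to 917654 a library, and Fap was at 0. Summed markers of other cell types were low and differed between groups. Epithelial markers (2 of 5 passed) summed to 96.4 to 107 in WT, 344 to 371 in KO1, 183 to 207 in KO2 and 305 to 327 in KO3, with Cldn4 at 0. Endothelial markers (4 of 5 passed) summed to 78.8 to 109 in WT and 120 to 330 in the clones, and leukocyte markers (4 of 6 passed) to 927 to 1923 in all. Their part in the results was not tested. WT replicate 1 stood apart: its reads gave chi-square values, divided by their degrees of freedom, of 57.6 and 60.5 against the other WT libraries, while the other pairs within a group ranged from 4.89 to 27.1.

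In KO1 against WT, 0 of the 9 tested genes rose and 5 fell, where 26.9% of all genes tested rose and 25.4% fell. In KO2, 0 rose and 7 fell, where 29.9% of all genes rose and 30.5% fell. In KO3, 3 rose (Neat1, Gas5 and Snhg12) and 2 fell (Rpph1 and Rmrp), where 26.8% rose and 27.3% fell. The median log2 difference of the 9 genes was -0.28, -0.65 and 0.14, while that of all genes tested lay between 0.003 and 0.018. Rpph1 is among the genes counted as falling in every clone, and the medians include it. Only the 3 WT libraries brought it past the filter, which favours a lower level in the clones. Its falls are therefore no support when these counts are set against the shares over all genes. The 3 comparisons share the WT libraries. Fewer cells that make an RNA and less of it per cell cannot be told apart in such bulk libraries.

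**Figure D1:**
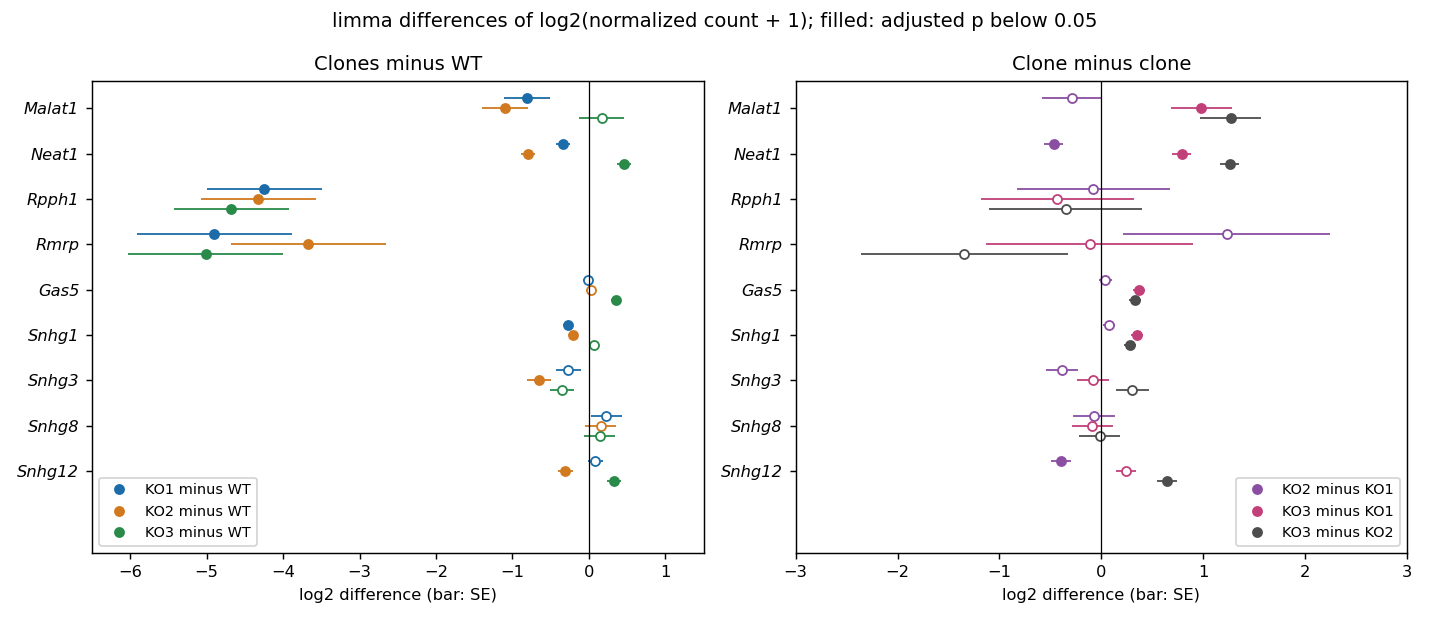
Log2 differences with standard errors for the 9 tested genes, clones minus WT (left) and clone minus clone (right); filled points have an adjusted p under 0.05. Rpph1 and Rmrp lie between -3.67 and -5.01 against WT in every clone, and Neat1 lies below 0 in KO1 and KO2 and above 0 in KO3.

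Malat1 (chr19:5795690-5802672, minus strand, longest transcript of 1 exon) was the most abundant of these RNAs, and its level in WT depended on the library. It had 152135, 82971 and 49033 normalized counts in WT replicates 1, 2 and 3. The KO1 libraries had 47244, 52879 and 45745, the KO2 libraries 35877, 36836 and 47487, and the KO3 libraries 84174, 112462 and 92618. The lowest WT library thus lay within the range of KO1 and the highest above every other library, while KO2 lay below all WT libraries and KO3 within their range. The SD of the log2 values was 0.82 in WT, above that of 95.0% of all genes tested, against 0.11 to 0.22 in the clones. Malat1 fell in KO1 by 0.81 on the log2 scale (SE 0.30, limma, adjusted p = 0.0368) and in KO2 by 1.10 (SE 0.30, adjusted p = 0.00662). In KO3 the difference was 0.17 (SE 0.30, adjusted p = 0.658), with a 95% interval of -0.48 to 0.82.

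These Malat1 calls were the least stable of the set. Without WT replicate 1 the KO1 difference was -0.39 (adjusted p = 0.108) and the KO3 difference 0.59 (adjusted p = 0.0223). Without WT replicate 3 the KO3 difference was -0.23 (adjusted p = 0.400). The KO1 call was also lost without WT replicate 2 (adjusted p = 0.0677) and without KO1 replicate 1, 2 or 3 (0.0884, 0.0610 and 0.0947). Fitted on the 2 groups alone, Malat1 gave an adjusted p of 0.101 in KO1 and 0.0575 in KO2.

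Neat1 (chr19:5824708-5845478, minus strand), whose gene lies 22035 bases from Malat1 on chromosome 19 in the same orientation, separated all 4 groups. It had 29983, 24894 and 23264 normalized counts in the WT libraries. KO1 had 19602, 20232 and 21874, KO2 had 14479, 13701 and 16497, and KO3 had 35619, 35679 and 35195. No library of one group overlapped those of another: every KO3 library lay above every WT library, every WT library above KO1 and every KO1 library above KO2. Neat1 fell in KO1 by 0.33 (SE 0.091, limma, adjusted p = 0.00863) and in KO2 by 0.80 (adjusted p = 9.17e-06), and it rose in KO3 by 0.45 (adjusted p = 0.00109). Each of these calls held without any 1 library, with the largest adjusted p at 0.0385. After quantile normalization the KO1 difference was -0.22 and lost its call (adjusted p = 0.0710). Neat1 is made as a short and a long form from the same start, and the gene counts do not separate them.

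Malat1 and Neat1 kept unequal proportions in WT. The ratio of Malat1 to Neat1 normalized counts was 5.07, 3.33 and 2.11 in WT replicates 1, 2 and 3. It ranged from 2.09 to 2.61 in KO1, from 2.48 to 2.88 in KO2 and from 2.36 to 3.15 in KO3. KO2 and KO3 therefore lay within the WT range and KO1 overlapped its low end, and the high end of that range was WT replicate 1. The ratio is of counts and is not adjusted for length.

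**Figure D2:**
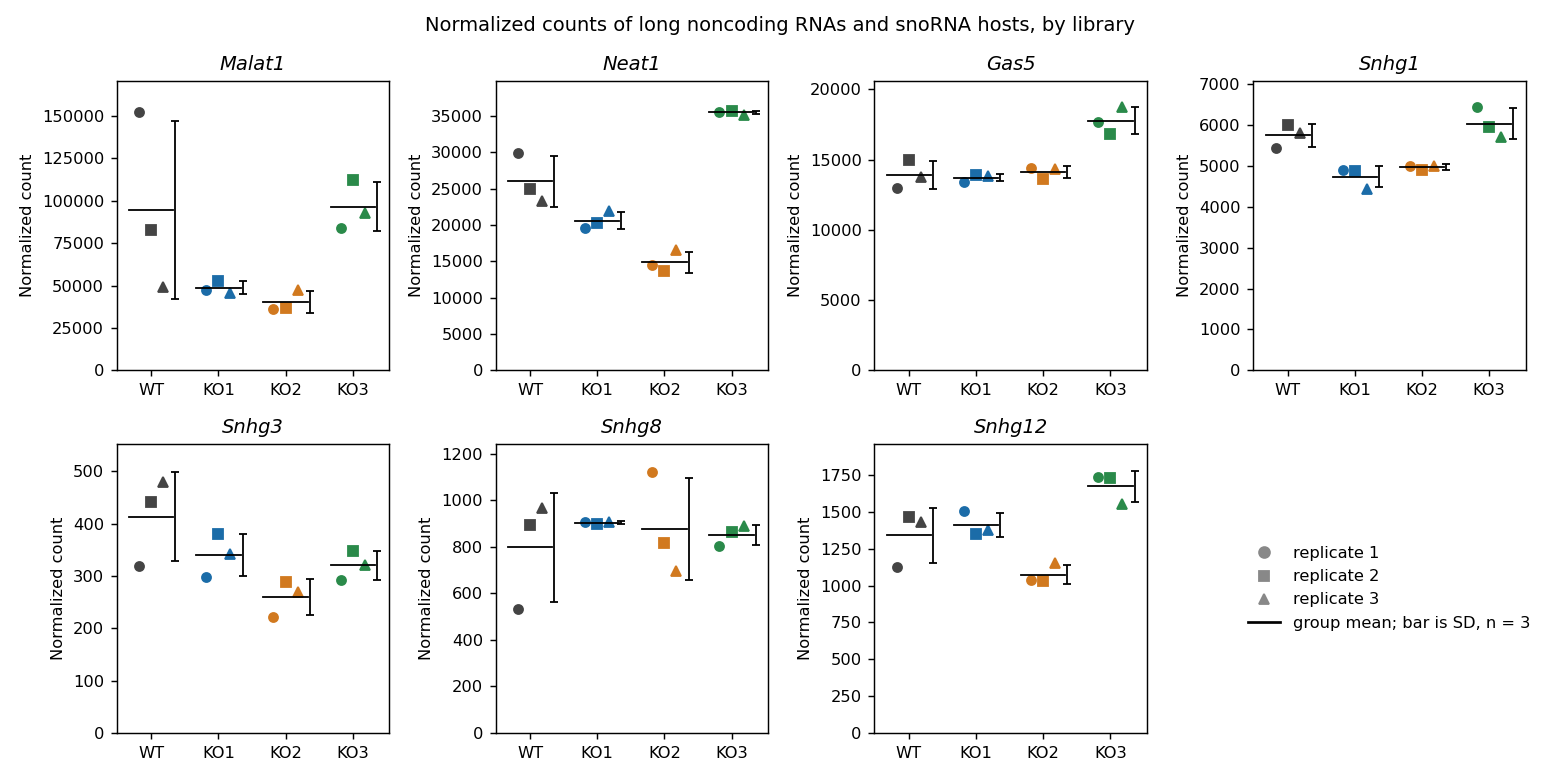
Normalized counts of the 7 long RNAs in each library (symbols mark replicates, lines the group mean, bars the SD, n = 3). Malat1 in WT runs from 49033 to 152135, while Neat1 in KO3 stays between 35195 and 35679.

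Rpph1 and Rmrp were present in WT and close to the detection limit in every clone. Rpph1 had 239, 22.8 and 103 normalized counts in the WT libraries, from 203, 22 and 114 reads. KO1 had 3.21, 4.22 and 2.95, KO2 had 9.33, 0.958 and 2.64, and KO3 had 3.11, 1.75 and 2.13. All 9 clone libraries lay below the lowest WT library, and the WT libraries themselves differed by a factor of 10.5. The WT mean was 35.1, 28.2 and 52.1 times those of KO1, KO2 and KO3, which rest on 10, 14 and 7 reads in all. The log2 differences were -4.25, -4.33 and -4.68 (SE 0.75, limma, adjusted p = 4.59e-04, 2.98e-04 and 1.96e-04). The pseudocount of 1 makes these smaller than the ratios of means. Rpph1 passed the filter through the 3 WT libraries alone. The direction of its differences was thus in part fixed by the filter, and their p-values are not independent support for a fall.

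Rmrp was likewise low in every clone. Its shorter row had 361, 42.5 and 394 normalized counts in WT. KO1 had 2.14, 7.39 and 7.87, KO2 had 16.8, 16.3 and 8.79, and KO3 had 0, 11.4 and 13.9. Again WT replicate 2 was the lowest of its group and still above every clone library. The WT mean was 45.8, 19.0 and 31.6 times those of KO1, KO2 and KO3. Rmrp fell in all 3 clones, with log2 differences of -4.90, -3.67 and -5.01 (SE 1.02, limma, adjusted p = 0.00149, 0.00768 and 0.00116). The SD of the log2 values in WT was 1.69 for Rpph1 and 1.80 for Rmrp, above that of 99.2% and 99.3% of all genes tested.

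The longer Rmrp row, which only 5 bases at each end set apart, took 7.06, 0 and 53.3 normalized counts in WT, 6.22 in KO3 replicate 1 and 0 in every other clone library. The 0 of the shorter row in KO3 replicate 1 thus stood beside 6 reads on the longer row. With both rows summed, KO3 had 6.22, 11.4 and 13.9 and WT 368, 42.5 and 447, and the WT mean was 27.2 times the KO3 mean. Which row a read joined is therefore uncertain, while the sum of the rows kept the difference.

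Terc (chr3:96414437-96414859, minus strand) was at 0 in the 3 WT libraries and had 1 read in KO1, 1 in KO2 and 3 in KO3. A count of 0 allows up to 3 reads in the WT group, so both sides lie at or under that floor and no fold is given. Such limits cover counting error only.

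Among other short structured RNAs, Rn7s1 and Rn7sk fell with Rpph1 and Rmrp. Rn7s1, a gene of the 7SL RNA of the signal recognition particle, had 2023, 368 and 1586 normalized counts in WT and 38.4 to 130 in the clones. Rn7sk, the RNA that holds the elongation factor P-TEFb inactive, had 1510, 123 and 1142 in WT and 36.2 to 272 in the clones. Like Rpph1 and Rmrp, both are made by RNA polymerase III. In each of the 4 RNAs WT replicates 1 and 3 were high and WT replicate 2 lower. For Rn7sk the KO2 libraries, with 272, 127 and 137, all lay above WT replicate 2. For Rpph1, Rmrp and Rn7s1 every clone library lay below it. Of the 19 listed genes of small structured RNAs, 4 were tested, and 0 rose and 2 fell in each clone. Of all genes tested, 26.9%, 29.9% and 26.8% rose and 25.4%, 30.5% and 27.3% fell in KO1, KO2 and KO3. Without WT replicate 2 all 4 fell in each clone, and without WT replicate 1 or 3, or with library quality weights, 1 fell in KO2. The genes that fell with all libraries were Rn7s1 (log2 differences -4.41, -3.43 and -3.23, limma, adjusted p at most 1.28e-04) and Rn7sk (-3.29, -1.82 and -3.66, adjusted p at most 0.0411).

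Rows listed as related to ribosomal RNA showed the same library pattern. Gm42418 had 211058, 40730 and 250022 normalized counts in WT and 12531 to 23463 in the clones. Lars2, the gene of mitochondrial leucyl-tRNA synthetase that is listed with these rows, had 12259, 7314 and 26821 in WT and 2766 to 5596 in the clones. Gm26917 had 9663, 8634 and 13760 in WT and 4564 to 6901 in the clones. All 3 fell in each clone (limma, adjusted p at most 0.00124), where 25.4%, 30.5% and 27.3% of all genes tested fell in KO1, KO2 and KO3. Summed over the 1306 rows annotated as snRNA, WT had 412, 85.9 and 501 normalized counts and the clones 13.4 to 42.0. Whether the amount of residual ribosomal and short RNA in the WT libraries takes part in the Rpph1 and Rmrp differences was not tested.

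**Figure D3:**
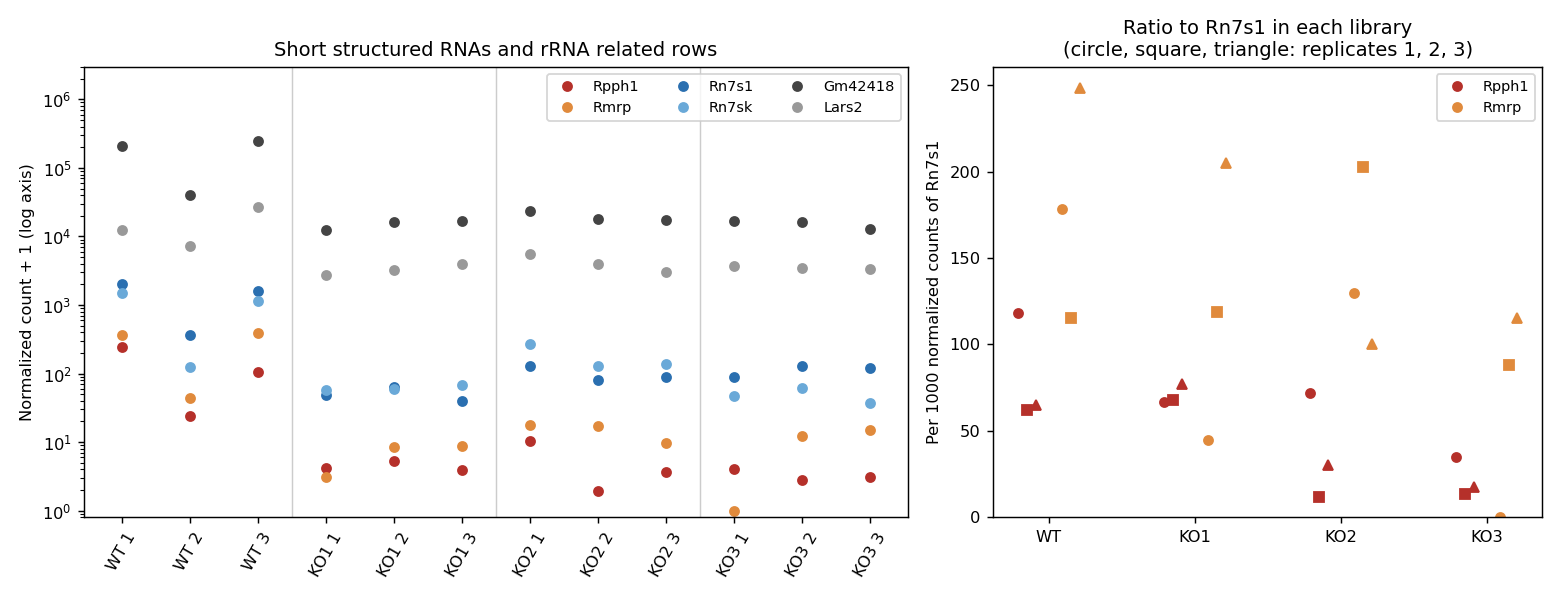
Left, normalized counts plus 1 (log axis) of Rpph1, Rmrp, Rn7s1, Rn7sk, Gm42418 and Lars2 in each library; right, Rpph1 and Rmrp per 1000 normalized counts of Rn7s1. Rmrp is its shorter row in both. WT replicate 2 is the lowest WT library for all 6 rows, and Rpph1 per 1000 Rn7s1 runs from 62.0 to 118 in WT and from 66.7 to 76.9 in KO1.

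Set against Rn7s1 within each library, the groups lay closer together. Rn7s1 itself fell in every clone and varied much like both RNAs over these libraries. The closer values were thus in part set by the choice of denominator and are no evidence on their own. Rpph1 had 118, 62.0 and 64.9 counts per 1000 of Rn7s1 in WT, 66.7 to 76.9 in KO1, 11.9 to 71.9 in KO2 and 13.5 to 34.9 in KO3. KO1 lay within the WT range, KO2 overlapped it and KO3 lay below it. Rmrp, with both rows summed, had 182, 115 and 282 per 1000 of Rn7s1 in WT, 44.4 to 205 in KO1, 100.0 to 202 in KO2 and 69.8 to 115 in KO3. KO1 and KO2 overlapped WT, and the highest KO3 library lay just under the lowest WT library. Against Rn7sk, Rpph1 had 90.1 to 185 per 1000 in WT and 7.52 to 72.7 over the 9 clone libraries, below all WT libraries. Rmrp, by its shorter row, did not separate in this way. It had 239 to 345 per 1000 of Rn7sk in WT, 37.7 to 127 in KO1 and 61.6 to 128 in KO2. In KO3 it had 0 to 382 and overlapped WT. These ratios rest on few reads in the clones and were not tested.

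By the likeness of log2 values over the 12 libraries, each centred on its own mean, Rn7s1 was the nearest of 10447 genes to both RNAs. These were tested genes with a mean of at least 100, without symbols of Gm and digits or ending in Rik. Rpph1, Rmrp, Gm42418 and Gm26917 were therefore not among the candidates. The root mean square difference was 0.81 for Rpph1 and 1.14 for Rmrp. Next for Rpph1 came Cspg4 (0.93), a cell surface proteoglycan, and Fgf10 (0.93), a fibroblast growth factor. Next for Rmrp came Rn7sk (1.22) and Dkk3 (1.28). Cspg4, Fgf10 and Dkk3 had no such spread within WT: Cspg4 had 8955, 8815 and 8723 normalized counts there and 393 to 572 in the clones. Nearest to Malat1 were Lars (0.24), Cad (0.27) and Ifi211 (0.27), and in each of these WT replicate 1 was likewise the highest WT library. Lars, the cytoplasmic leucyl-tRNA synthetase, had 18041, 7933 and 7302 in WT and 12430 to 14997 in KO3.

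The snoRNA hosts changed by smaller amounts than Rpph1 and Rmrp, and in different clones. Gas5 (chr1:161034422-161038539, plus strand), whose spliced RNA accumulates when growth stops, had 12979, 14993 and 13773 normalized counts in WT. KO1 had 13424, 13914 and 13818, KO2 had 14376, 13598 and 14333, and KO3 had 17711, 16829 and 18777. Every KO3 library lay above every other library. Gas5 rose in KO3 by 0.35 (SE 0.060, limma, adjusted p = 2.99e-04). In KO1 and KO2 the differences were -0.02 and 0.02, with 95% intervals of -0.15 to 0.11 and -0.11 to 0.15.

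Snhg1 (chr19:8723475-8726443, plus strand) had 5439, 6001 and 5810 normalized counts in WT. KO1 had 4905, 4873 and 4438, KO2 had 5010, 4894 and 5011, and KO3 had 6456, 5949 and 5707. KO1 and KO2 lay below all WT libraries and KO3 overlapped WT. Snhg1 fell in KO1 by 0.28 (SE 0.060, limma, adjusted p = 0.00183) and in KO2 by 0.21 (adjusted p = 0.00923). The KO3 difference was 0.07 (adjusted p = 0.349). After quantile normalization the KO2 difference was -0.06 (adjusted p = 0.496) and the KO1 difference -0.17 (adjusted p = 0.0588). Per 1000 counts of Gas5, Snhg1 had 400.3 to 422 in WT, 321 to 365 in KO1, 348 to 360.0 in KO2 and 304 to 365 in KO3. All 9 clone libraries thus lay below WT in this ratio, which was not tested. In KO3, however, Gas5 rose by 0.35 (limma, adjusted p = 2.99e-04) and Snhg1 did not fall, so the ratio there shows no loss of Snhg1. The share of all genes without overlap in such a ratio was not counted. The ratio of Snhg12 to Gas5 overlapped WT in KO1 and KO3 and lay below it in KO2.

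Snhg12 (chr4:132308623-132311024, plus strand) had 1125, 1467 and 1430 normalized counts in WT. KO1 had 1508, 1353 and 1378, KO2 had 1041, 1031 and 1151, and KO3 had 1738, 1731 and 1553. KO3 lay above all WT libraries, and KO2 overlapped only WT replicate 1. Snhg12 fell in KO2 by 0.31 (SE 0.097, limma, adjusted p = 0.0148) and rose in KO3 by 0.33 (adjusted p = 0.0125). The KO2 call was lost without WT replicate 2, WT replicate 3 or KO2 replicate 2 (adjusted p = 0.0659, 0.0575 and 0.0523), and with the 2 groups fitted alone the adjusted p was 0.0632 in KO2 and 0.0523 in KO3.

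Snhg3 (chr4:132348014-132353686, minus strand), which hosts the H/ACA snoRNAs Snora73a and Snora73b, had 319, 442 and 480.5 normalized counts in WT. KO1 had 299, 380 and 341, KO2 had 222, 289 and 270, and KO3 had 292, 347 and 322. It fell in KO2, where all 3 libraries lay below WT, by 0.65 (SE 0.16, limma, adjusted p = 0.00337). The KO1 and KO3 differences were -0.27 and -0.35 (adjusted p = 0.177 and 0.0813). Without WT replicate 1, the lowest WT library, they were -0.44 and -0.53 (adjusted p = 0.0157 and 0.00587), and after quantile normalization both passed too (adjusted p = 0.0281 and 0.0331).

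Snhg8 (chr3:123507552-123508404, minus strand) passed the test in no comparison. It had 532, 894 and 969 normalized counts in WT, 908, 899 and 908 in KO1, 1122, 817 and 695 in KO2, and 803, 863 and 889 in KO3. WT replicate 1 was the lowest library of all, and the KO2 libraries overlapped WT, with replicate 1 above all WT libraries. The differences from WT were 0.23, 0.16 and 0.14 (limma, adjusted p = 0.371, 0.530 and 0.588), with 95% intervals from -0.21 to 0.67 in KO1, -0.29 to 0.60 in KO2 and -0.30 to 0.58 in KO3.

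The rows of the snoRNAs themselves held few counts. GENCODE M21 places 26 snoRNA genes inside the 5 hosts, 10 of them in Gas5, 8 in Snhg1, 5 in Snhg12, 2 in Snhg3 and 1 in Snhg8. Only Snora73a and Snora73b, both in Snhg3, passed the filter, with means of 11.5 and 13.0 normalized counts over 12 libraries. Snora73b had 19.99, 9.32 and 35.2 in WT and 7.39 to 13.4 in the clones. Snora73a had 15.3, 5.18 and 31.6 in WT and 6.71 to 11.8 in the clones. Their differences from WT ran from -0.37 to -0.90 and none passed the test. WT replicates 1 and 3 were again high and replicate 2 low. Apart from Snord22 in Snhg1, with a mean of 3.90, the other hosted snoRNAs had means under 1.

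Several hosts overlap or adjoin protein-coding genes. Snhg3 transcripts also hold sequence of both snoRNAs, and 60.7% of their 31-base stretches lie opposite Gm17300 (mean 0.629), so reads cannot be fully told apart there. Snhg3 shares 135 exonic bases with Rcc1, the nucleotide exchange factor of Ran, on the same strand. Rcc1 fell in KO2 by 0.76 (limma, adjusted p = 1.30e-05), the clone in which Snhg3 fell, but rose in KO3 by 0.25 (adjusted p = 0.0340). Per 1000 counts of Rcc1, Snhg3 had 154 to 188 in WT, 126 to 169 in KO1, 165 to 193 in KO2 and 96.3 to 120.0 in KO3. Snhg1 starts 106 bases from the divergent gene Slc3a2, the heavy chain of amino acid transporters, which rose in KO1 by 0.32, fell in KO2 by 0.32 and rose in KO3 by 1.00 (adjusted p at most 1.31e-04). Gas5 starts 427 bases from Zbtb37, which fell in KO2 by 0.55 (adjusted p = 0.00348) where Gas5 did not pass the test. Rpph1 starts 74 bases from Parp2, a poly(ADP-ribose) polymerase, which had 0.19, -0.09 and 0.34 (adjusted p = 0.0755, 0.393 and 0.00464). Ccdc107, 158 bases from Rmrp, had 0.16, -0.09 and 0.34, and none passed. No fall of Parp2 or Ccdc107 passed the test in any clone, which does not show that their levels were unchanged. Reads from the stretch where Ccdc107 lies opposite Rmrp cannot be told apart.

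Clones were also compared with each other, which sets WT and its spread aside apart from the shared variance. Between KO2 and KO1, 0 of the 9 genes were higher in KO2 and 2 were lower, where 20.5% of all genes were higher and 23.9% lower. Between KO3 and KO1, 4 were higher in KO3 and 0 lower, where 20.3% were higher and 23.4% lower. Between KO3 and KO2, 5 were higher in KO3 and 0 lower, where 26.1% were higher and 27.0% lower. The 5 genes were Malat1, Neat1, Gas5, Snhg1 and Snhg12, and the first 4 of these were also the ones higher than in KO1.

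Neat1 differed between every pair of clones, with KO3 above KO2 by 1.26 (limma, adjusted p = 2.61e-07) and above KO1 by 0.79 (adjusted p = 2.34e-05). Malat1 in KO3 was above KO2 by 1.27 (adjusted p = 0.00321) and above KO1 by 0.98 (adjusted p = 0.0181). The Malat1 difference from KO1 lost its call without KO1 replicate 1, KO1 replicate 3 or KO3 replicate 2 (adjusted p = 0.0525, 0.0560 and 0.0688). For Rpph1 and Rmrp no difference between clones passed the test. The 95% interval for Rpph1 in KO3 against KO1 ran from -2.06 to 1.20 and for Rmrp from -2.33 to 2.10, so differences of several fold would not have been detectable at these counts.

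Per kilobase of the longest annotated transcript, the mean over 12 libraries was 10018 normalized counts for Malat1, 5820 for Gas5, 1970 for Snhg1, 1168 for Neat1 and 1106 for Snhg8. It was 894 for Snhg12, 574 for Snhg3, 271 for Rmrp and 103 for Rpph1. Only Gas5 and Snhg1 were neighbours in this order whose ranges over the 12 libraries did not overlap. Neat1, taken at its longest transcript of 20771 bases, thus had a higher count than Gas5 and a lower level per length. The counts do not separate the short and long forms of Neat1. Its place in this order therefore depends on the length used, and the level of each form is not known.

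The other genes of these pathways were read from lists, whose counts stand against 26.9%, 29.9% and 26.8% of all genes tested rising and 25.4%, 30.5% and 27.3% falling in KO1, KO2 and KO3. Among 16 further noncoding snoRNA hosts, 11 were tested: 2 rose and 2 fell in KO1, 2 and 3 in KO2, and 1 and 3 in KO3. Snhg5 fell by 0.73, 1.04 and 0.30 (limma, adjusted p = 9.40e-06, 2.93e-07 and 0.00755), from 2952, 3296 and 3271 normalized counts in WT to 1471 to 1609 in KO2. Dancr fell by 0.72, 0.71 and 0.65 (adjusted p at most 0.0369), although WT replicate 1 had 307 against 634 to 700 in the other WT libraries and 270 to 354 in the clones. Snhg17 fell in KO2 by 0.68 and rose in KO3 by 0.24, and Snhg14 rose in KO1 by 1.31. The list's median was -0.10, 0.11 and 0.24, and -0.23, -0.30 and -0.05 without WT replicate 1. Without that library 5 fell in KO1 and 0 rose in KO3, so the KO3 call of Snhg17 was lost. Without WT replicate 2, and likewise without WT replicate 3, 1 fell in KO1, and in KO3 2 rose and 2 fell.

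Among 10 other nuclear long noncoding RNAs, 7 were tested, and 1 rose and 1 fell in KO1, 2 and 4 in KO2, and 2 and 3 in KO3. The KO1 and KO3 counts are near the shares over all genes, and without WT replicate 3 1 rose in KO3. Meg3, an imprinted noncoding RNA, rose by 4.56, 6.35 and 2.32 (limma, adjusted p = 6.74e-04, 3.61e-05 and 0.0354). It had 2.35, 19.7 and 0.903 normalized counts in WT, 88.8 to 198 in KO1, 278 to 513 in KO2 and 7.26 to 69.3 in KO3, so KO3 overlapped WT. Airn, the antisense RNA of the imprinted Igf2r cluster, fell by 0.57, 0.50 and 0.96 (adjusted p at most 0.0322). Tug1 fell in KO2 by 0.37 and in KO3 by 0.40, and Pvt1 fell in KO2 by 0.44 and rose in KO3 by 0.30.

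The proteins of RNase P and RNase MRP changed by smaller amounts than Rpph1 and Rmrp. Of 11 tested proteins of RNase P and RNase MRP, 0 rose and 4 fell in KO1, 0 and 5 in KO2, and 2 and 0 in KO3, with medians of -0.05, -0.10 and 0.09. Without WT replicate 1 the medians were -0.15, -0.38 and -0.11, with 5, 6 and 1 falling, and without WT replicate 2 3 fell in KO2. Rpp38 fell in KO1 by 0.35 and in KO2 by 0.31 and rose in KO3 by 0.55 (limma, adjusted p = 0.0109, 0.0158 and 4.76e-04). Pop1, a large subunit of both enzymes, fell in KO1 by 0.48 and in KO2 by 1.00 (adjusted p = 7.00e-04 and 1.11e-06). Rpp30 fell in KO1 by 0.44 and in KO2 by 0.52. Rpp21 rose in KO3 by 0.58.

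Of the 9 tested proteins of telomerase and the box H/ACA particles that guide pseudouridylation, 1 rose and 5 fell in KO1, 1 and 5 in KO2, and 1 and 6 in KO3. Dkc1, the pseudouridine synthase dyskerin, fell by 0.70, 1.19 and 0.39 (limma, adjusted p at most 0.0249). Nhp2 fell by 0.48, 1.13 and 0.33, Gar1 by 0.40, 0.76 and 0.40, and the assembly factor Shq1 by 0.85, 0.75 and 0.81 (adjusted p at most 0.0480). The list's median was -0.40, -0.74 and -0.39. Falls in KO3 numbered 4 after quantile normalization, where 0 rose, and without WT replicate 1, 2 or 3, and 5 with TMM factors. In KO1 4 fell with TMM factors, after quantile normalization and without WT replicate 3.

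Of the 9 box C/D snoRNP proteins, which carry out or assemble ribose methylation particles, 0 rose and 5 fell in KO1, 0 and 9 in KO2, and 3 and 3 in KO3, where both counts are near the shares over all genes. Nop56, a core protein, fell by 0.67, 1.27 and 0.34 (limma, adjusted p at most 0.00440). Znhit6 fell by 0.44, 0.88 and 0.45 and Ruvbl1 by 0.52, 0.36 and 0.29, while Ruvbl2 fell in KO2 by 0.37 and rose in KO3 by 0.34.

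Of 14 paraspeckle proteins, 1 rose and 6 fell in KO1, 0 and 11 in KO2, and 1 and 4 in KO3. The KO3 count of falls is near the share over all genes. After quantile normalization the KO1 counts were 2 and 2, and without WT replicate 2 0 rose in KO1. Hnrnpk fell by 0.42, 0.72 and 0.52 (limma, adjusted p at most 2.75e-04), Hnrnpa1 by 0.39, 0.66 and 0.36 and Rbm14 by 0.22, 0.47 and 0.37. Tardbp fell in KO1 by 0.44 and in KO2 by 0.73. Pspc1, a core paraspeckle protein named after its values were seen, rose in KO3 by 0.70 (adjusted p = 3.93e-04), with 560, 594 and 675 normalized counts against 409, 334 and 381 in WT. Nono and Sfpq of the same list did not go with it. Nono had 13573, 14040 and 14964 in KO3, below the WT libraries at 16825, 16453 and 16363. Sfpq had 15914, 16693 and 15490 in KO3 against 18870, 16659 and 16788 in WT.

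Of 14 factors of nonsense-mediated decay, 1 rose and 6 fell in KO1, 3 and 7 in KO2, and 1 and 8 in KO3. The KO3 falls numbered 5 with TMM factors, after quantile normalization, and without WT replicate 2 or 3, and 0 rose in KO1 without WT replicate 1 or 2. Smg5, which helps to bring RNA decay enzymes to marked transcripts, fell by 0.47, 0.74 and 0.47 (limma, adjusted p at most 1.61e-04). Rbm8a, of the exon junction complex, fell by 0.41, 0.73 and 0.47. Upf1, the central helicase, rose in KO1 by 0.12 and in KO2 by 0.18 and fell in KO3 by 0.12.

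**Figure D4:**
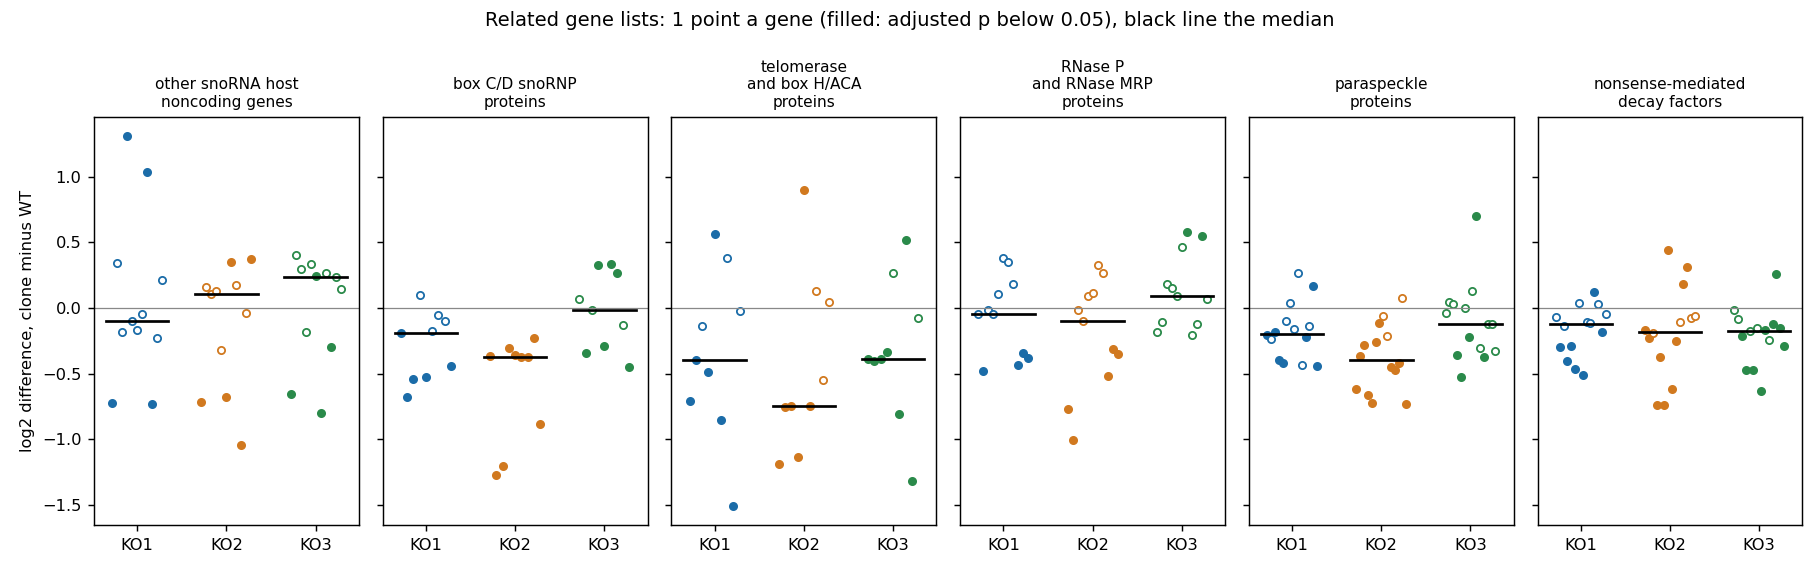
Log2 differences from WT of every tested gene of 6 related lists, 1 point a gene, filled where the adjusted p is under 0.05, with the list's median as a black line. The box C/D list has all 9 points below 0 in KO2 and medians of -0.19, -0.37 and -0.01, while the RNase P and RNase MRP proteins have medians of -0.05, -0.10 and 0.09.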

How the data were processed

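Total RNA of 4 groups with 3 libraries each was sequenced. The submitters' processing notes name GRCm38 (mm10) and the tools DESeq2 1.24.0, Salmon 0.14.1 and cutadapt. Their roles, the annotation and the strand setting: not given in the sources used here. The authors deposited a normalized count for each gene, a signal that is never negative, and tables of log2 fold changes and of p-values per clone, per the file headers. The deposited values are whole numbers divided by 1 size factor a library (99.95% to 99.99% whole within 0.02), and multiplying back gave the reads, which may be rounded Salmon estimates. Identifiers were matched to GENCODE M21 (35 rows had no symbol).

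Limma 3.58.1 (R 4.3.3, trended prior variance) was fitted to log2(value + 1) of all 4 groups, two-sided, with Benjamini-Hochberg adjustment over 15073 genes and a threshold of 0.05. The fit was tested on simulated data. Alternatives were pseudocounts of 0.5 and 5, no filter, quantile and TMM scaling, library weights, 2-group fits, a replicate block, each library left out, edgeR 4.0.16 and DESeq2 1.42.0 on recovered reads, the authors' tables and, added after seeing the data, both Rmrp rows summed. From each list up to 4 genes with the smallest largest-of-3 adjusted p are named (1 such gene is not reported here), with the host snoRNAs averaging at least 10, divergent neighbours within 1 kb, overlapping genes and, for the 3 widest-ranging genes, the 3 most alike. The genes and lists were chosen with earlier results of these data known.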

Additional observations from a re-analysis of the deposited data

Results flagged for a closer look

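The clones, which share a target gene, differed from each other beyond the spread between libraries for 5 of the 9 genes (limma, adjusted over all genes tested). Over all genes tested, 20.5% were higher and 23.9% lower in KO2 than in KO1. In KO3 20.3% were higher and 23.4% lower than in KO1, and 26.1% higher and 27.0% lower than in KO2. The share of all genes that differed in any pair was not counted, so these 5 genes are not set apart from it. Malat1 differed by 0.98 between KO3 and KO1 (adjusted p = 0.0181) and by 1.27 between KO3 and KO2 (adjusted p = 0.00321), each higher in KO3 in 3 of 3 libraries. Neat1 differed by -0.47 between KO2 and KO1 (adjusted p = 0.00123), by 0.79 between KO3 and KO1 (adjusted p = 2.34e-05) and by 1.26 between KO3 and KO2 (adjusted p = 2.61e-07). Gas5 was higher in KO3 than in KO1 by 0.37 (adjusted p = 3.12e-04) and than in KO2 by 0.33 (adjusted p = 5.03e-04). After quantile normalization the difference of Gas5 between KO3 and KO2 was 0.16 and did not pass (adjusted p = 0.0586). Snhg1 was higher in KO3 than in KO1 by 0.35 (adjusted p = 4.88e-04) and than in KO2 by 0.28 (adjusted p = 0.00178). Snhg12 differed by -0.40 between KO2 and KO1 (adjusted p = 0.00555) and by 0.64 between KO3 and KO2 (adjusted p = 1.32e-04). In all 11 comparisons the libraries of the 2 clones did not overlap. These comparisons were picked by the test on the same libraries, so the lack of overlap adds no support. The share of all genes without overlap was not counted.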

How the results depend on the processing

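Over all alternatives, 1137 values for single genes kept their direction and side of the threshold, 21 lost a call, 27 gained one and 36 changed sign, the last all among differences that had not passed the test. The Rmrp calls against WT held under every alternative run; those of Rpph1 did too, but the filter in part fixed its direction. After quantile normalization 3 genes were lower in KO1 (Malat1, Neat1 and Snhg1 lost their calls and Snhg3 gained one) and 1 was higher in KO2 (Gas5, 0.17), and with library quality weights 1 was lower in KO3 than in KO2 (Rmrp, -2.39); the causes were not tested. Differences that changed sign were, at a pseudocount of 5, Rpph1 in KO2 against KO1 (0.0384) and Rmrp in KO3 against KO1 (0.15). After quantile normalization they were Gas5 in KO1 against WT (0.10), Rpph1 in KO2 (1.12) and KO3 (0.84) against KO1, and Rmrp (0.91) and Snhg3 (0.016) in KO3 against KO1. With quality weights they were Snhg12 in KO1 (-0.0269), Gas5 in KO2 (-0.0741), Snhg8 in KO2 (-0.10) and KO3 (-0.10) against WT, and Rpph1 in KO3 against KO2 (0.47). With edgeR and DESeq2 on recovered reads they were Rpph1 in KO2 against KO1 (0.33 and 0.32) and Rmrp in KO3 against KO1 (0.54 with each), and with both Rmrp rows summed the latter was 0.84.

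Leaving out 1 library at a time gave 4 to 5 genes lower in KO1, 6 to 7 in KO2 and 2 to 3 in KO3 against WT, 3 to 4 higher in KO3, 2 to 3 lower in KO2 than in KO1, 3 to 5 higher in KO3 than in KO1 and 5 to 6 higher in KO3 than in KO2. Ranges for genes whose sign changed were, against WT, -0.0671 to 0.0370 for Gas5 in KO1 and -0.0276 to 0.0765 in KO2, -0.0403 to 0.39 for Snhg8 in KO1, -0.11 to 0.32 in KO2 and -0.13 to 0.30 in KO3, -0.0372 to 0.15 for Snhg12 in KO1, and -0.23 to 0.59 for Malat1 in KO3. Between KO2 and KO1 they were -0.73 to 0.47 for Rpph1 and -0.26 to 0.0820 for Snhg8, between KO3 and KO1 -0.81 to 1.14 for Rmrp and -0.17 to 0.00212 for Snhg3, and between KO3 and KO2 -0.90 to 0.30 for Rpph1 and -0.17 to 0.17 for Snhg8.

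The replicate numbers did not pair the libraries: deviations of same-numbered libraries correlated at -0.22 to 0.12 over 18 pairs, and 3 of 12 libraries correlated best with their own number. With the replicate block 7521, 8862 and 7865 genes were called in KO1, KO2 and KO3 against WT, where 7878, 9105 and 8151 were without it. Malat1 in KO1 then had an adjusted p of 0.0512, and Snhg3 passed in KO1 and KO3 (0.0496 and 0.0150). Counts below 20 in the clones limit Rpph1 and Rmrp there, and the count of Terc allows no comparison.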

Other observations

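In 3 short RNAs below the filter WT replicate 2 was the lowest WT library, as for Rpph1 and Rmrp. Scarna10, a guide RNA of Cajal bodies, had 27.0, 0 and 16.3 normalized counts in WT replicates 1, 2 and 3 and 0 to 5.28 in the clones. Rny1, a Y RNA bound by the Ro60 protein, had 16.5, 1.04 and 23.5 in WT and 0 to 1.06 in the clones. Rny3 had 9.41, 3.11 and 14.5 in WT and 0 to 2.80 in the clones. These 3 genes were chosen after their values were seen and were not tested. Other listed short RNAs below the filter differed: Snord17 had 1.18, 3.11 and 5.42 in WT and Rnu11 had 1.18, 1.04 and 0. Over all 1364 rows annotated as snoRNA, WT had 209, 101 and 239 normalized counts and the clones 58.5 to 93.8, so WT replicate 2 lay nearest to the clones here too.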
